A study of Arabidopsis thaliana with 12 samples.

Results

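The data describe transcripts of 2 mitochondrial enzymes of ornithine and proline breakdown in Arabidopsis thaliana, out of 13356 genes that the platform annotation pairs with a probe set of their own. DELTA-OAT (AT5G46180, probe set 248879_at) encodes ornithine aminotransferase, and AT5G38710 (probe set 249527_at), listed as ProDH2, encodes a proline dehydrogenase. They were chosen by name, as every single-gene probe set of these enzymes in that annotation, and both passed the filter on low signals. The choice was made with earlier results of these data known, and the p-values below take no account of it. Of 10 proline loci listed, these were the only 2 measured by a single-gene probe set. The other 8, among them the proline dehydrogenase gene ProDH1, were not analysed here.

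Proline builds up in plants at low water potential, where it acts as a compatible solute and as a store of carbon, nitrogen and reducing power. Proline dehydrogenase, at the inner mitochondrial membrane, starts the breakdown of proline by oxidising it to pyrroline-5-carboxylate, which a second dehydrogenase turns into glutamate. Ornithine aminotransferase moves the delta-amino group of ornithine, a product of arginine breakdown, to 2-oxoglutarate and yields glutamate semialdehyde, which is in equilibrium with the same pyrroline-5-carboxylate. The enzymes therefore meet at 1 intermediate, and in Arabidopsis ornithine aminotransferase is known for its role in nitrogen recycling from arginine.

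Whole seedlings of the mutant hai1-2 and of the wild type Col-0 were compared at 2 water potentials. The hai1-2 allele lies in HAI1 (At5g59220), a type 2C protein phosphatase of abscisic acid signalling, in the Col-0 background, and 1 mutant line was used. Seedlings aged 7 days, grown on agar without sugar in continuous light, spent 96 h on agar infused with polyethylene glycol at -1.2 MPa, called stressed here, or on fresh control agar at -0.25 MPa. The groups were stressed hai1-2, stressed Col-0, control hai1-2 and control Col-0, with 3 arrays each. All 4 were sampled once in each of 3 independent experiments.

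The arrays were one-colour Affymetrix arrays of 22810 probe sets, and the values are MAS5 signals, a linear intensity per probe set. Median signal lay between 195 and 212 on the 12 arrays, and the number of arrays limits the precision. The annotation used here names no probe set for HAI1, so its own level was not used to check the genotype labels. Markers of shoot and of root both gave signal on every array of these whole seedlings, as described further down. In such bulk samples, fewer cells of a type and less RNA per cell cannot be told apart.

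DELTA-OAT transcript was higher at low water potential in both genotypes, by 2.43-fold in hai1-2 and 1.70-fold in Col-0 as ratios of mean signals. In stressed hai1-2 seedlings its signal was 995, 980 and 1035.2 in experiments 1, 2 and 3, against 424.8, 402.5 and 413.1 in control hai1-2 seedlings. In stressed Col-0 seedlings it was 782.8, 699.3 and 744.6, against 450.6, 416.1 and 441.3 in control Col-0 seedlings. Every stressed array lay above every control array, and the 3 stressed hai1-2 arrays lay above the 3 stressed Col-0 arrays.

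**Figure D1:**
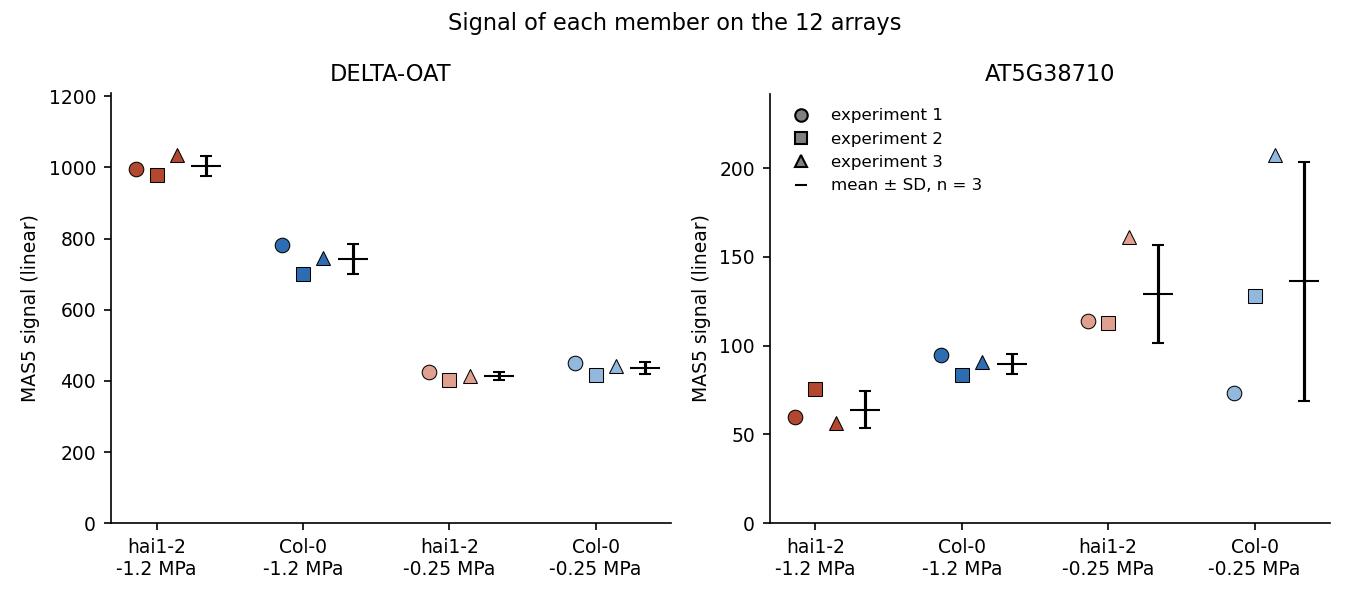
MAS5 signal on a linear axis of DELTA-OAT (left panel) and AT5G38710 (right panel) on each of the 12 arrays, by group, with marker shapes for the 3 experiments and black bars for mean ± SD (n = 3). DELTA-OAT lies between 980 and 1035.2 in stressed hai1-2 and between 402.5 and 424.8 in control hai1-2, while AT5G38710 lies between 56.2 and 75.7 in stressed hai1-2 and spreads from 73.3 to 207.5 in control Col-0.

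On the scale of log2(signal + 16), on which all changes below are given, DELTA-OAT rose by 1.25 ± 0.12 in hai1-2 (SE, 3 arrays per group, limma adjusted p = 2.72e-06). In Col-0 it rose by 0.75 ± 0.12 (limma adjusted p = 0.000292). A rise was called, at an adjusted p under 0.05 over all probe sets tested, for 19.9% of 17059 probe sets in hai1-2 and for 18.1% in Col-0, and the median change over all of them was 0.07 in each genotype. Stressed and control arrays also failed to overlap upwards for 28.7% of probe sets in hai1-2 and 24.5% in Col-0, so neither the call nor the separation set DELTA-OAT apart. A rise called in both genotypes, as that of DELTA-OAT was, occurred for 13.7% of probe sets. By size, 5.22% of the probe sets tested had a larger rise than DELTA-OAT in hai1-2, and 11.9% had one in Col-0.

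The response of DELTA-OAT was much the same in each experiment. In hai1-2 the stressed array exceeded the control array of the same experiment by 1.2, 1.25 and 1.29 in experiments 1, 2 and 3. In Col-0 the same difference was 0.78, 0.73 and 0.73. The lowest value in hai1-2 was thus above the highest in Col-0. The test of this difference in response, described further down, did not pass (limma adjusted p = 0.99). How many probe sets separate in the same way was not counted. Averaged over genotypes the rise was 1.00 ± 0.08 (SE, 6 arrays against 6, limma adjusted p = 3.58e-07), a direction and call shared by 27.9% of probe sets. An exact two-sided permutation test of the 6 stressed against the 6 control arrays gave p = 0.00216, the smallest that its 924 arrangements allow.

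Few probe sets were as steady as that of DELTA-OAT. Its signal varied by 2.84% within stressed hai1-2 (SD over mean, n = 3), 5.63% within stressed Col-0, 2.70% within control hai1-2 and 4.09% within control Col-0. Its pooled SD within groups was 0.0563 on the log2 scale, against a median of 0.243 over all probe sets tested, of which 4 had a smaller one. The moderated fit draws each variance towards the trend of probe sets of like intensity, so the SE of 0.12 given with every difference of DELTA-OAT between 2 groups is larger than the 0.046 that its own spread gives.

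**Figure D2:**
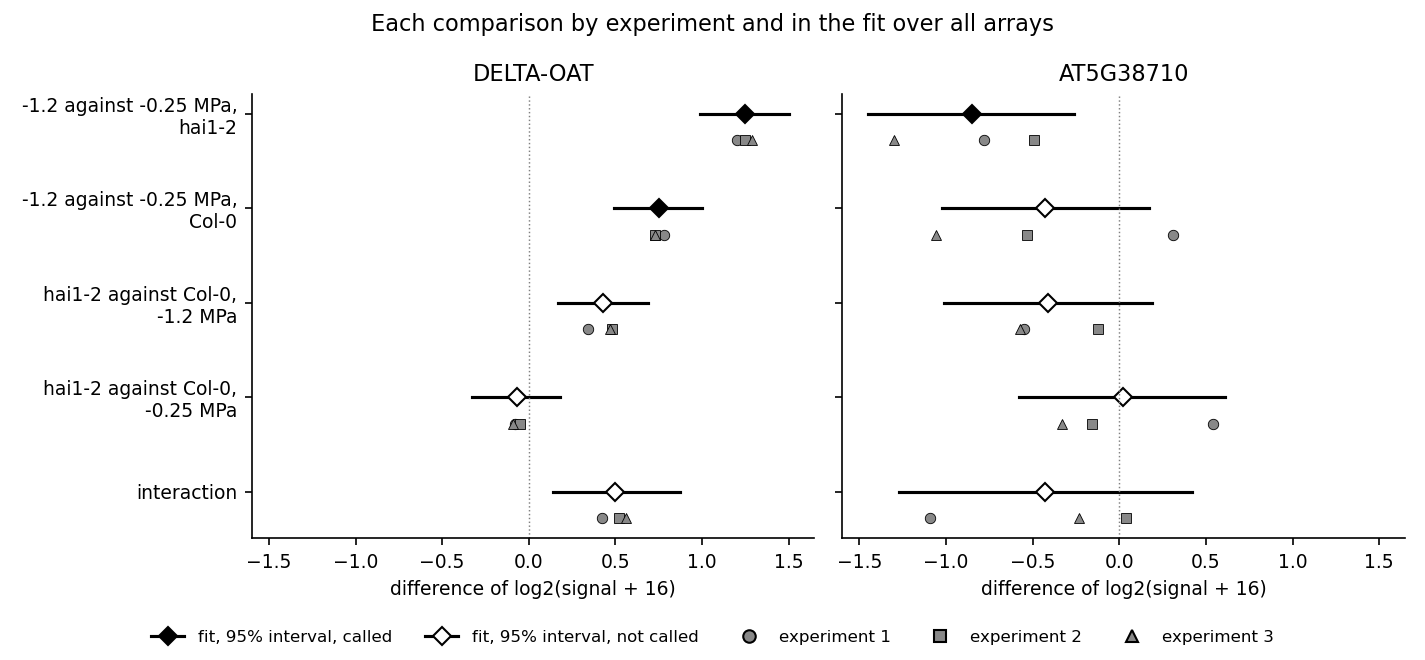
Differences in log2(signal + 16) of DELTA-OAT (left) and AT5G38710 (right) in 5 comparisons, with diamonds for the limma estimate over all 12 arrays (filled where the adjusted p is under 0.05), lines for its 95% interval and grey symbols for each experiment alone. The experiments lie close together for DELTA-OAT, between 1.2 and 1.29 in hai1-2, and far apart for AT5G38710, between -1.06 and 0.31 in Col-0.

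At low water potential DELTA-OAT had a higher mean signal in hai1-2 than in Col-0, a difference that did not pass the test over all probe sets. The means were 1003 ± 28.5 in stressed hai1-2 and 742 ± 41.8 in stressed Col-0 (SD, n = 3), a ratio of 1.35. The log2 difference was 0.43 ± 0.12 (SE, 95% interval 0.17 to 0.69), with 0.34, 0.48 and 0.47 in experiments 1, 2 and 3. Its unadjusted p was 0.00314 and its limma adjusted p was 0.67. Of all probe sets tested, 0.463% had a smaller p and 3.72% a larger difference upwards. The groups did not overlap, as was the case upwards for 6.52% of probe sets, and 1 probe set in all, or 0.00586%, was called in this comparison by limma (953 had an unadjusted p under 0.05).

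On control plates DELTA-OAT averaged 413 ± 11.2 in hai1-2 and 436 ± 17.9 in Col-0 (SD, n = 3), and the arrays overlapped. The log2 difference was -0.07 ± 0.12 (SE, 95% interval -0.33 to 0.18, limma adjusted p = 0.999), and in the 3 experiments it was -0.08, -0.05 and -0.09. No probe set was called there, which is 0% of those tested by limma, and 546 had an unadjusted p under 0.05.

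The test of whether the DELTA-OAT response itself differed between genotypes gave an interaction of 0.50 ± 0.17 (SE, 95% interval 0.14 to 0.87). The interaction was 0.42, 0.52 and 0.56 in the 3 experiments, above 0 in each. It had an unadjusted p of 0.0105 and a limma adjusted p of 0.99, so it did not pass over all probe sets, of which 0.00586% were called. DELTA-OAT levels thus ordered as stressed hai1-2, stressed Col-0, control Col-0 and control hai1-2, and the arrays of the last pair overlapped. Within experiments control hai1-2 was lower than control Col-0 each time, by the small differences given above, and with the replicate block that difference did not pass (-0.07 ± 0.12, SE, limma adjusted p = 0.986). Probe sets that keep 1 sign in all 3 experiments, as this difference and the interaction of DELTA-OAT did, were not counted. Averaged over water potentials, hai1-2 exceeded Col-0 by 0.18 ± 0.08 (SE, limma adjusted p = 0.999), in a comparison that called 0.0176% of probe sets.

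A sign of RNA quality moved with this comparison of genotypes under stress, while the other ratios overlapped between the groups. The ratio of 5' to 3' signal of the second GAPDH control pair was 1.05 to 1.16 on stressed hai1-2 arrays and 0.756 to 0.952 on stressed Col-0 arrays, with no overlap. It also separated stressed from control arrays, being 0.85 to 1.03 on control hai1-2 arrays and 0.983 to 1.02 on control Col-0 arrays. It was thus higher under stress in hai1-2 and lower under stress in Col-0. Between the stressed groups the first GAPDH control pair ran the other way, at 0.634 to 0.79 in hai1-2 and 0.69 to 1.15 in Col-0. The ratio of 5' to 3' signal of actin was 0.391 to 0.516 on stressed hai1-2 arrays and 0.303 to 0.564 on stressed Col-0 arrays. With the log2 ratio of the second pair as a covariate, an alternative added after seeing the data, the difference of DELTA-OAT between stressed hai1-2 and stressed Col-0 stayed at 0.43, with a wider SE of 0.21 and an unadjusted p of 0.0596. With that of the first pair it was 0.39 ± 0.12 (SE), with an unadjusted p of 0.00821. Neither passed after adjustment, as was so without a covariate.

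AT5G38710, the ProDH2 gene of proline dehydrogenase, went the other way at low water potential in hai1-2. Its signal was 59.9, 75.7 and 56.2 in stressed hai1-2 seedlings of experiments 1, 2 and 3, against 114.1, 112.8 and 161.2 in control hai1-2 seedlings. In stressed Col-0 seedlings it was 94.9, 83.7 and 90.9, against 73.3, 127.9 and 207.5 in control Col-0 seedlings. Stressed and control arrays of hai1-2 did not overlap. Those of Col-0 did, because the control array of experiment 1, at 73.3, lay below all 3 stressed Col-0 arrays. On both kinds of control plate the array of experiment 3 was the highest.

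In hai1-2 AT5G38710 fell by 0.85 ± 0.28 on the log2 scale (SE, 95% interval -1.45 to -0.26, limma adjusted p = 0.0264), to 0.494 of the control mean. A fall was called for 17.8% of probe sets tested, a separation downwards was seen for 23.3%, and 10.8% fell further than AT5G38710. In Col-0 the change was -0.43 ± 0.28 (SE, 95% interval -1.02 to 0.17, limma adjusted p = 0.26), which did not pass the test, in a comparison where 16.1% of probe sets were called lower. The call in hai1-2 rested on single arrays. Without replicate 1 or replicate 3 of stressed hai1-2 the change was -0.82 or -0.78, and without replicate 3 of control hai1-2 it was -0.70, none of which passed (limma adjusted p = 0.0707, 0.0803 and 0.103). Without control Col-0 replicate 1, the Col-0 change was -0.76 and passed (limma adjusted p = 0.0285).

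**Figure D3:**
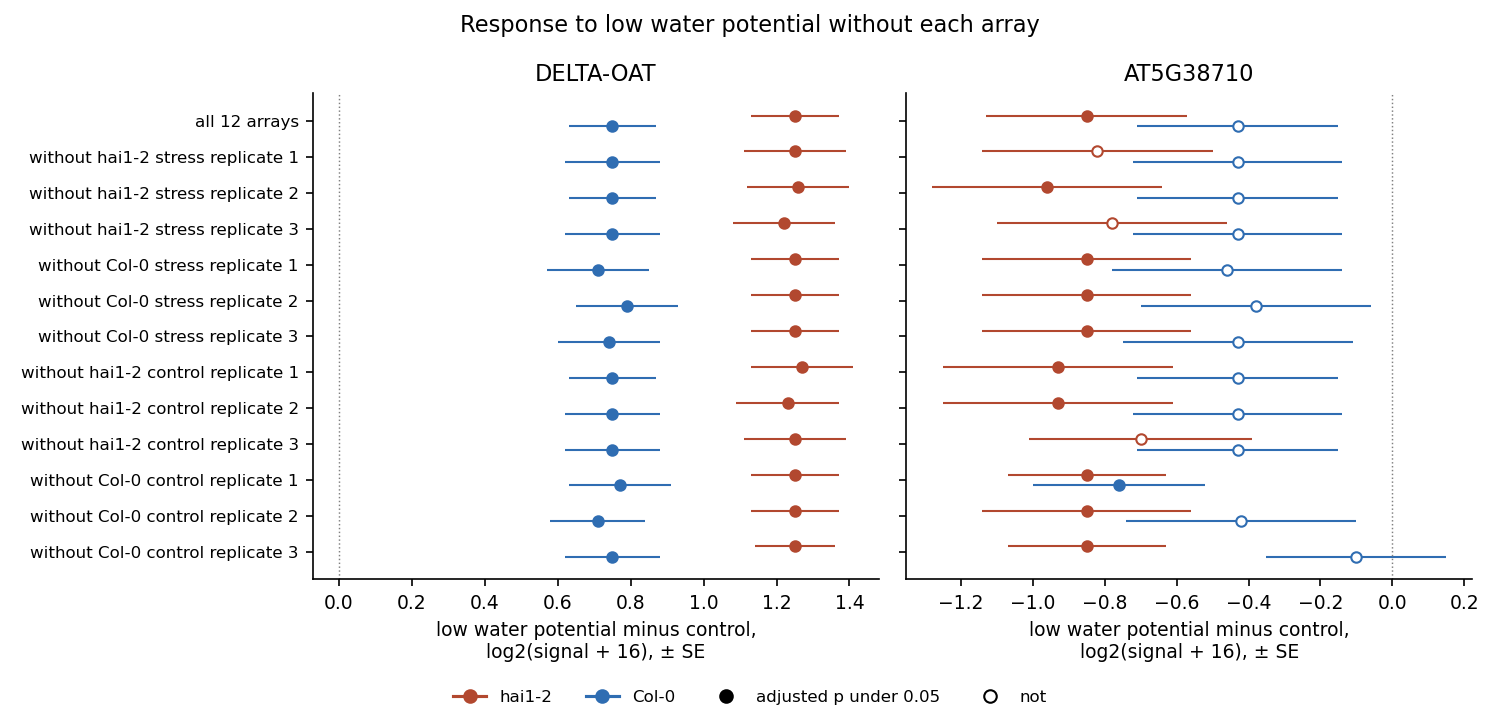
Change at low water potential in log2(signal + 16), ± SE, of DELTA-OAT (left) and AT5G38710 (right) in hai1-2 (red) and Col-0 (blue), with all 12 arrays and without each array in turn, filled where the limma adjusted p is under 0.05. DELTA-OAT stays between 1.22 and 1.27 in hai1-2 and between 0.71 and 0.79 in Col-0, while AT5G38710 ranges from -0.96 to -0.70 in hai1-2 and from -0.76 to -0.10 in Col-0.

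The experiments differed for AT5G38710. In hai1-2 the stressed array differed from the control array by -0.78, -0.49 and -1.30 in experiments 1, 2 and 3. In Col-0 the differences were 0.31, -0.53 and -1.06. So 5 of the 6 pairs of arrays were lower under stress, and experiment 3 had the largest fall in each genotype. Averaged over genotypes AT5G38710 fell by 0.64 ± 0.20 (SE, 6 arrays against 6, limma adjusted p = 0.0143), to a mean signal of 76.9 on stressed arrays, against 133 on control arrays. A fall was called there for 22.8% of probe sets. The exact two-sided permutation test gave p = 0.0152. With arrays exchanged only within a genotype and experiment, the exact permutation test gave p = 0.0625, where the smallest p possible is 0.0312, and the call was lost.

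The AT5G38710 probe set was noisier than that of DELTA-OAT. Its signal varied by 16.2% within stressed hai1-2 (SD over mean, n = 3), 6.32% within stressed Col-0, 21.3% within control hai1-2 and 49.5% within control Col-0. Its pooled SD within groups was 0.369 on the log2 scale, and 81.9% of the probe sets tested had a smaller one. Its mean log2 value of 6.84 lay nearer the limit of 5.67 below which probe sets were removed than that of DELTA-OAT, at 9.28. With its own variance alone in place of the moderated one, an alternative added after seeing the data, the change in hai1-2 of -0.85 did not pass (adjusted p = 0.0607 without limma's moderation). With the covariate of the second GAPDH pair it was -0.94, with a wider SE of 0.38, and did not pass either (limma adjusted p = 0.101). That ratio itself separated stressed from control hai1-2 arrays, so the covariate overlaps with the change tested.

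Between genotypes AT5G38710 did not differ beyond the test. In stressed seedlings it averaged 63.9 ± 10.4 in hai1-2 and 89.8 ± 5.68 in Col-0 (SD, n = 3), a ratio of 0.712. Those arrays did not overlap, which held downwards for 7.59% of probe sets, and the log2 difference was -0.41 ± 0.28 (SE, 95% interval -1.01 to 0.19, limma adjusted p = 0.993). By experiment it was -0.55, -0.12 and -0.57. On control plates the mean was 129 ± 27.6 in hai1-2 and 136 ± 67.5 in Col-0 (SD, n = 3). The log2 difference there was 0.02 ± 0.28 (SE, 95% interval -0.58 to 0.61, limma adjusted p = 0.999), made of 0.54, -0.16 and -0.33 in the 3 experiments. The interaction was -0.43 ± 0.39 (SE, 95% interval -1.27 to 0.42, limma adjusted p = 0.99), and -1.09, 0.04 and -0.23 by experiment. All 3 intervals include 0 and reach -0.58 or lower. By mean signal AT5G38710 was highest in control Col-0, then control hai1-2, stressed Col-0 and stressed hai1-2. The control groups change places on the log2 scale, at 7.17 in control hai1-2 and 7.15 in control Col-0, so they have no settled order. Their arrays overlapped, and so did those of control Col-0 with stressed Col-0.

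The balance between the 2 transcripts was followed within each array, where the scaling of the array cancels. The log2 value of DELTA-OAT minus that of AT5G38710 was 3.74, 3.44 and 3.86 on stressed hai1-2 arrays, against 1.76, 1.70 and 1.28 on control hai1-2 arrays. It was 2.85, 2.84 and 2.83 on stressed Col-0 arrays, against 2.39, 1.59 and 1.03 on control Col-0 arrays. Every stressed array lay above every control array, and every stressed hai1-2 array above every stressed Col-0 array. Because probe sets differ in how they bind, only shifts of this difference between arrays can be read, not its size. Stressed arrays exceeded control arrays by 1.64 on average (exact two-sided permutation test, p = 0.00216, the smallest possible). This shift restates the rise of DELTA-OAT and the fall of AT5G38710 given above and is not a separate result. The enzymes were also chosen with earlier results of these data known, and other pairs of genes were not examined. With exchange only within a genotype and experiment the exact p was 0.0312, also the smallest possible. The pairs exchanged came from 3 experiments that both genotypes shared, so they are not independent of each other. Over the 12 arrays the 2 transcripts had a Pearson r of -0.76, and their deviations from the group means had an r of -0.12. Both are descriptions, since the arrays share experiments and groups.

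Signal of shoot and root markers moved with the water potential as well. Of 12 shoot markers listed 5 were measured, and of 10 root markers 3. For comparison, 19.9% of all probe sets tested were called higher and 17.8% lower in hai1-2, and 18.1% higher and 16.1% lower in Col-0. The summed signal of 5 shoot markers (PSAN, RCA and 3 LHCB4 genes of photosynthesis), all of which fell in both genotypes, was 41206 to 47270 in stressed hai1-2, against 79343 to 94537 in control hai1-2. It was 45196 to 49853 in stressed Col-0, against 67810 to 87162 in control Col-0. Of 3 root markers, the expansin genes EXPA7 and EXPA18 and the beta-glucosidase gene PYK10, 3 rose in hai1-2 and 2 in Col-0, and the hai1-2 calls of EXPA18 and PYK10 ended when some 1 array was left out. Their sum was 20978 to 23210 in stressed hai1-2, against 14764 to 18260 in control hai1-2. It was 16036 to 23401 in stressed Col-0, against 16345 to 16954 in control Col-0. Nearly all of that sum is PYK10, which changed by 0.40 in hai1-2 and 0.18 in Col-0. EXPA7 rose by 1.85 in hai1-2 and 2.34 in Col-0, and EXPA18 by 1.24 in hai1-2 and 1.41 in Col-0. The part of these shifts in the values of DELTA-OAT and AT5G38710 was not tested.

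Genes around the 2 enzymes were taken from lists of the pathway, of which the glutamate, glutamine, asparagine and GABA list had no measured member. Of 7 arginine and ornithine genes tested, 2 rose, 0 fell and 5 did not pass in hai1-2, with a list median of 0.27. In Col-0, 3 rose, 0 fell and 4 did not pass, with a median of 0.26. Over all probe sets tested, 19.9% rose and 17.8% fell in hai1-2 and 18.1% rose and 16.1% fell in Col-0, with a median of 0.07 in each. OTC, the ornithine carbamoyltransferase that turns ornithine into citrulline, rose by 0.51 ± 0.16 in hai1-2 (SE, limma adjusted p = 0.0244) and stood at 0.26 in Col-0 (limma adjusted p = 0.245). URE, the urease that releases ammonium from the urea of arginine breakdown, stood at 0.29 in hai1-2 (limma adjusted p = 0.257) and rose by 0.68 ± 0.19 in Col-0 (SE, limma adjusted p = 0.0152). AT4G17830 rose by 0.70 in hai1-2 and 0.57 in Col-0, and AT5G10920 stood at 0.27 in hai1-2 (limma adjusted p = 0.237) and rose by 0.56 in Col-0. Of these 5 calls, all but that of AT4G17830 in hai1-2 ended when some 1 array was left out, and none of the 5 passed with the covariate of the second GAPDH pair. The changes themselves were then about as large, at 0.59 for OTC and 0.62 for AT4G17830 in hai1-2, and at 0.67 for URE, 0.64 for AT4G17830 and 0.55 for AT5G10920 in Col-0. AT4G24830, at -0.10 in hai1-2 and -0.19 in Col-0, did not pass.

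The change of DELTA-OAT in hai1-2, at 1.25, was larger than that of any of these 7 genes in hai1-2, and in Col-0 its 0.75 lay close to the 0.68 of URE. No test was made of differences between genes.

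**Figure D4:**
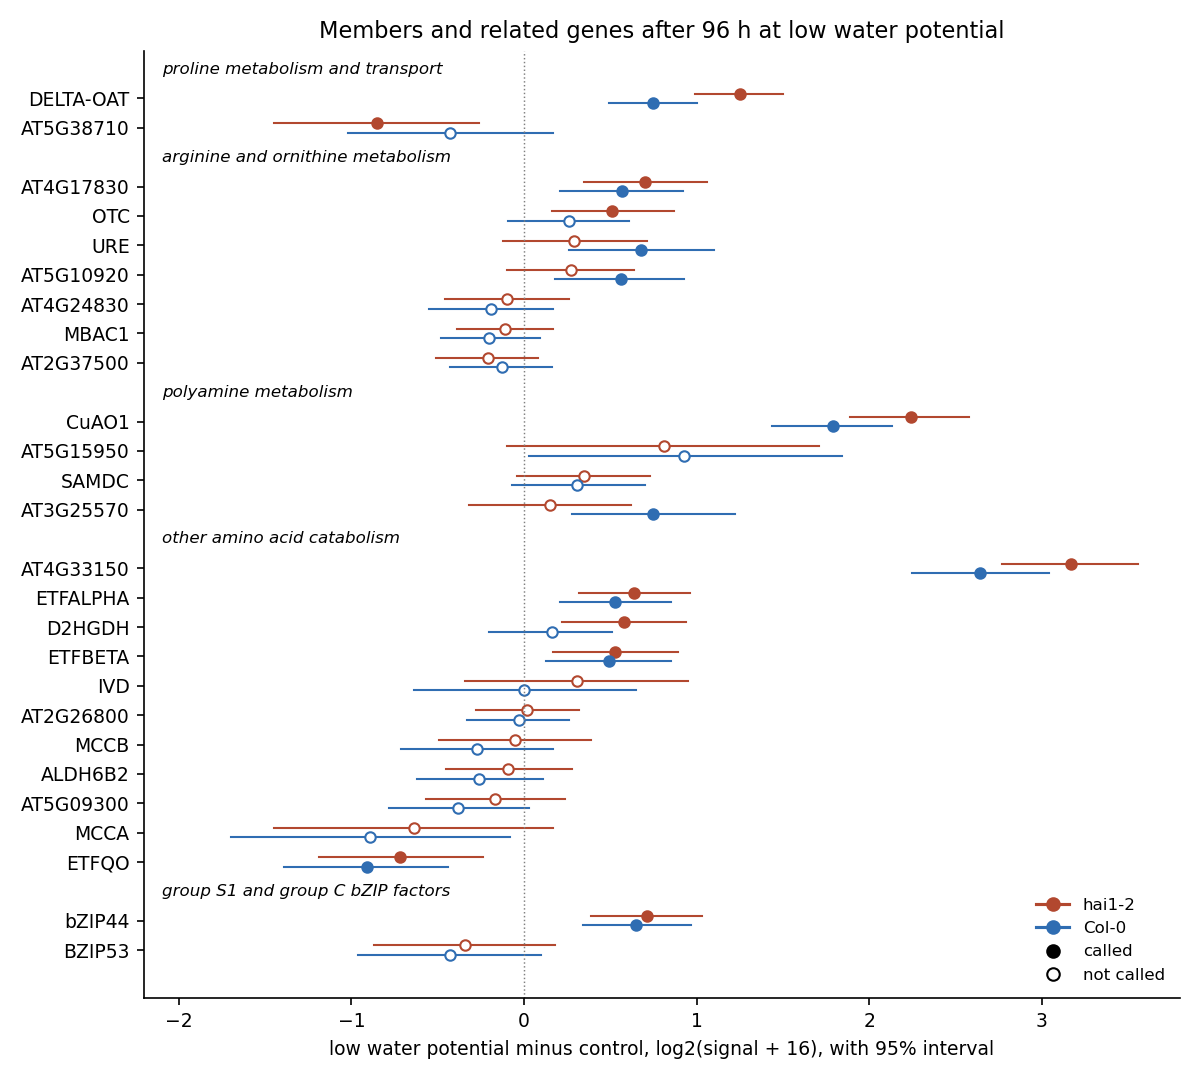
Change at low water potential in log2(signal + 16), with 95% intervals, of DELTA-OAT, AT5G38710 and the measured genes of 4 related lists in hai1-2 (red) and Col-0 (blue), filled where the limma adjusted p is under 0.05. AT4G33150 (3.17 in hai1-2, 2.64 in Col-0) and CuAO1 (2.24 in hai1-2, 1.79 in Col-0) lie to the right of DELTA-OAT (1.25 in hai1-2, 0.75 in Col-0), and AT5G38710 and ETFQO lie left of 0.

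Outside arginine metabolism, 2 catabolic genes had larger changes than DELTA-OAT in both genotypes. CuAO1, a copper amine oxidase that degrades putrescine, rose by 2.24 ± 0.16 in hai1-2 (SE, limma adjusted p = 1.82e-07) and by 1.79 ± 0.16 in Col-0 (limma adjusted p = 1.76e-06). Of 4 polyamine genes tested, CuAO1 was the only 1 called in hai1-2, beside 19.9% of all probe sets called higher. In Col-0, where 18.1% were, AT3G25570 was called too, at 0.75, against 0.15 without a call in hai1-2. That was a call that ended without stressed replicate 1 or control replicate 3 of Col-0. SAMDC, an S-adenosylmethionine decarboxylase gene of spermidine and spermine synthesis, did not pass, at 0.35 in hai1-2 and 0.31 in Col-0. AT5G15950 did not pass either, at 0.81 ± 0.42 in hai1-2 (SE, limma adjusted p = 0.149) and 0.93 ± 0.42 in Col-0 (limma adjusted p = 0.104). AT4G33150, the bifunctional LKR/SDH enzyme of lysine breakdown, rose by 3.17 ± 0.18 in hai1-2 (SE, limma adjusted p = 2.56e-08) and by 2.64 ± 0.18 in Col-0 (limma adjusted p = 1.83e-07).

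Of the 11 genes of other amino acid catabolism, 4 rose, 1 fell and 6 did not pass in hai1-2, and 3 rose, 1 fell and 7 did not pass in Col-0, with medians of 0.02 in hai1-2 and -0.03 in Col-0. The shares over all probe sets were those given above for each genotype, 19.9% higher and 17.8% lower in hai1-2 and 18.1% higher and 16.1% lower in Col-0. The gene that fell was ETFQO, a mitochondrial ubiquinone oxidoreductase that takes electrons from branched-chain amino acid and lysine breakdown, at -0.72 ± 0.22 in hai1-2 (SE, limma adjusted p = 0.021) and -0.91 ± 0.22 in Col-0 (limma adjusted p = 0.00592). The call in hai1-2 ended without either of 2 stressed or 2 control hai1-2 arrays, at -0.70 to -0.58. ETFALPHA and ETFBETA, the subunits of the flavoprotein that hands electrons to ETFQO, rose by 0.64 and 0.53 in hai1-2 and by 0.53 and 0.49 in Col-0, and both Col-0 calls ended when some 1 array was left out. The call of ETFBETA in hai1-2 was not examined without single arrays or with a covariate. With the covariate of the second GAPDH pair ETFQO no longer passed, at -0.83 in hai1-2 and -0.81 in Col-0, nor did ETFALPHA in hai1-2, at 0.57, or ETFBETA in Col-0, at 0.40. D2HGDH, a mitochondrial 2-hydroxyglutarate dehydrogenase that also passes electrons to this flavoprotein, rose by 0.58 in hai1-2 (limma adjusted p = 0.0136) and stood at 0.16 in Col-0 (limma adjusted p = 0.508). Its call in hai1-2 ended without control hai1-2 replicate 2 or 3, at 0.52 or 0.50. ALDH6B2, a methylmalonate semialdehyde dehydrogenase of valine breakdown, did not pass, at -0.09 in hai1-2 and -0.26 in Col-0, nor did MCCB, a subunit of the methylcrotonyl-CoA carboxylase of leucine breakdown, at -0.05 in hai1-2 and -0.27 in Col-0. MCCA, its other subunit, stood at -0.64 in hai1-2 (limma adjusted p = 0.198) and -0.89 in Col-0 (limma adjusted p = 0.0841). Averaged over genotypes MCCA was called lower, at -0.77 (limma adjusted p = 0.0271), as were 22.8% of probe sets. Of the bZIP factors of groups S1 and C, some of which bind proline dehydrogenase promoters in Arabidopsis, 2 were measured. bZIP44 rose by 0.71 in hai1-2 and 0.65 in Col-0, while BZIP53 did not pass, at -0.34 in hai1-2 (limma adjusted p = 0.293) and -0.43 in Col-0 (limma adjusted p = 0.197). No gene of any of these lists was called in a comparison of genotypes or in the interaction. Hardly any probe set was: 0.00586% between stressed genotypes, 0% on control plates, 0.0176% averaged over water potentials and 0.00586% in the interaction. The absence of calls thus does not set these lists apart.

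The genes whose pattern over the 12 arrays was most like that of each enzyme were ranked by Pearson r of log2(signal + 16) among 9395 other single-gene probe sets tested. For DELTA-OAT they were AT3G47080 (r = 0.979), AT5G04250 (0.977), AT1G67920 (0.977), AT1G80130 (0.976) and AT2G25950 (0.975). They differed in the size of their change, which was 0.96 to 5.09 in hai1-2 and 0.75 to 4.45 in Col-0. Its direction, and its being larger in hai1-2, follow from the choice of genes by r. Once group means were removed, their r with DELTA-OAT ran from -0.49 to 0.60, and 2 of the 5 were below 0. With 64 added before the log in place of 16, 1 of these 5 stayed among the 5 most like DELTA-OAT, and with 1 added, 5 did.

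For AT5G38710 the 5 genes were AT3G13760 (r = 0.934), AT1G35710 (0.909), AT4G15140 (0.903), iqd33 (0.898) and AT3G07000 (0.898). Their changes under stress were -1.73 to -0.75 in hai1-2 and -0.83 to -0.45 in Col-0. Their r with AT5G38710 stayed at 0.78 to 0.88 after group means were removed. The ranking used those same arrays, so both the level of r and the high control Col-0 array of experiment 3 follow in part from how the genes were chosen. With 1 and 64 added, 4 and 5 of these 5 stayed in the list.

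**Figure D5:**
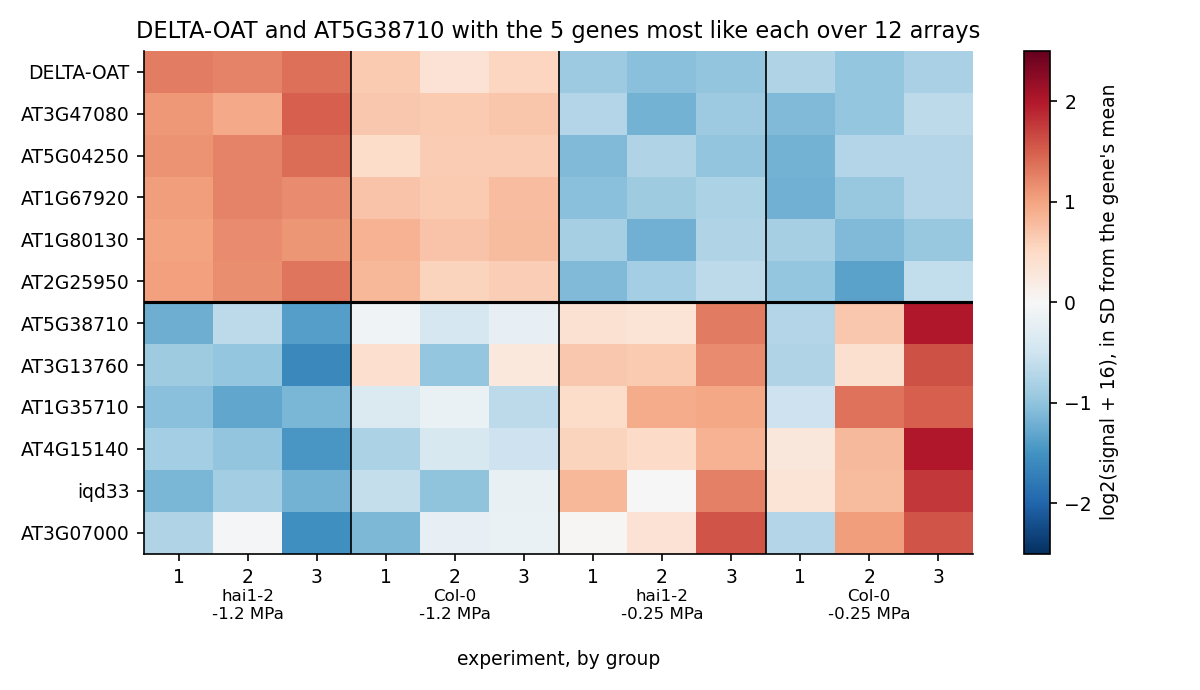
Levels of DELTA-OAT with the 5 genes most like it (top) and of AT5G38710 with the 5 most like it (bottom) on the 12 arrays, as log2(signal + 16) in SD from the mean of each gene, with columns by group and experiment. The upper 6 genes are highest in the 3 stressed hai1-2 columns, and the lower 6 are high in control Col-0 of experiment 3.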

How the data were processed

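Total RNA of whole seedlings was labelled with biotin and hybridised to one-colour Affymetrix arrays, 1 per sample. The deposited values are intensity on a linear scale, made with MAS5 per the submitters' processing notes. The MAS5 version and scaling are not stated in the sources used here. The mean signal after trimming 2% at each end was 500 on every array, so no normalization was added, and medians of log2 values differed by 0.116 at most.

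Signals were taken as log2(signal + 16), which understates the change of weak genes. The 64 control probe sets were left out, and the lowest 25% of the others by mean log2, 5687 probe sets below 5.67, were removed, and 17059 were tested. Group means over the 12 arrays were estimated in R 4.3.3 with limma 3.58.1 (lmFit and eBayes with an intensity trend), files were read with the data.table package (version 1.17.8), and figures were drawn with matplotlib 3.10.9. All p-values were two-sided, and those of limma were adjusted over every probe set tested (Benjamini-Hochberg) and called under 0.05. The script was tested on simulated data. SD is over the 3 signals of a group and SE is that of the moderated fit. Exact permutation tests were run on the 2 enzymes alone. They treat arrays, or pairs of arrays, as independent, though all came from 3 experiments that both genotypes shared. Their p-values can therefore overstate the replication.

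Groups came from the sample labels. Per the series' design text, each independent experiment gave 1 sample to every group, so the replicate number pairs samples, and a fit with a block for each experiment was tried. Deviations from group means of same-numbered arrays correlated between genotypes at 0.227 to 0.263 under stress and 0.128 to 0.517 on control plates, and between water potentials at -0.0199 to 0.0886 in hai1-2 and -0.0232 to 0.0929 in Col-0. For differently numbered arrays these ran from -0.136 to -0.104, -0.422 to 0.164, -0.153 to 0.117 and -0.123 to 0.105, in the same order. The ranges were thus apart only between genotypes under stress.

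Gene names came from a platform annotation updated through TAIR10.1, used for names only: 13513 probe sets had 1 gene, 503 several and 8730 none. Probe sets with several genes or none were not named. The 2 enzymes, and 9 lists of 122 loci of which 34 were measured and tested, were chosen with earlier results of these data known. Named from each list were up to 4 members called in a comparison, by smallest adjusted p, and up to 2 not called, by highest mean log2, with the values of both genotypes given, and for each enzyme the 5 genes most like it. MCCA was named outside this rule, beside MCCB. The lists of glutamate and GABA metabolism and of sugar starvation had no measured member.

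Alternatives were constants of 1 and 64, a filter that removed none or the lowest 50% of probe sets, quantile normalization, median centring, no intensity trend, robust moderation, array weights, the compared arrays only, the replicate block and leaving out each array. Covariates from both GAPDH control pairs, unmoderated variances and other constants for the likeness were added after seeing the data.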

Additional observations from a re-analysis of the deposited data

How the results depend on the processing

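DELTA-OAT kept its calls in both genotypes under each of 14 settings and without each array (1.16 to 1.28 in hai1-2 and 0.68 to 0.80 in Col-0 over the settings), and missed the threshold between stressed genotypes in all of them (adjusted p = 0.112 to 1). For AT5G38710 in hai1-2, leaving out single arrays gave -0.96 to -0.70, the GAPDH covariate of the second pair gave -0.94 and unmoderated variances gave -0.85, and the call was lost under both and without 3 of the arrays. In Col-0 it ran from -0.76 to -0.10 without single arrays. Its difference between genotypes on control plates was 0 with 64 added, and -0.32 to 0.34 without single arrays. With the replicate block, the exact permutation p of its fall of -0.64 was 0.0625, and the block changed no other call of the 2 enzymes. AT5G38710 had no value with the lowest 50% of probe sets removed, since it was among them. The fit to the compared arrays alone covers only the 4 comparisons of 2 groups.

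Over all probe sets, the calls of the response fell in both genotypes with the covariate of the second pair. They fell to 3827 in hai1-2, from 3390 higher and 3031 lower, and to 3906 in Col-0, from 3083 higher and 2755 lower. Between stressed genotypes, 2 were called with 64 added, without the trend or with the compared arrays only, 3 with array weights, the replicate block or the covariate of the first pair, and 1 to 2 without single arrays. On control plates the replicate block called 1 and leaving out arrays 0 to 1. The interaction had 0 with the covariate of the second pair or unmoderated variances, and the genotypes averaged over water potentials had 1 with that covariate. Among related genes, direction turned without single arrays for AT4G24830 in Col-0 (-0.30 to 0.01), ALDH6B2 in hai1-2 (-0.22 to 0.01) and MCCB in hai1-2 (-0.20 to 0.06). The cause of each change was not tested.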
